A study of Mus musculus with 12 samples.

Results

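The 8 mRNA libraries of the mouse E14 embryonic stem cell groups WT, SOM, 41584 and 41589, with 2 libraries each, fell into 2 sets of 4 that divided 2 of the groups. One set, called the SOM side here, held both SOM libraries, replicate 2 of 41584 and replicate 2 of 41589. The other, called the WT side, held both WT libraries, replicate 1 of 41584 and replicate 1 of 41589. The 8 are taken from 12 libraries in all. The other 4 belong to the Dicer knockout (KO) and to line 41585 and took no part in the choice. The sets were read from the expression values themselves, so every difference between them is given as a description, with no test.

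All groups are E14 cells, of the 129/Ola background, kept on gelatin in serum and the cytokine LIF, with puromycin in every group. Dicer is the enzyme that cuts miRNAs and siRNAs from their precursors, and KO stands for its knockout. SOM, 41584, 41585 and 41589 are read here as the Dicer-complemented lines that the study names, and the meaning of SOM is not given there. The labels describe 41584 as like WT, 41589 as lacking siRNA processing and 41585 as lacking both miRNA and siRNA processing. Neither the number of clones behind a line nor the origin of its replicates, from 1 culture or several, is stated there. Within a line the labels therefore give no difference between replicate 1 and replicate 2 other than the number.

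Embryonic stem cells kept in serum and LIF are a mixed population. Cells move between a naive state, held by factors such as Esrrb and Nr0b1, and a formative state on the way to the epiblast, in which de novo DNA methyltransferases are raised. They also transcribe part of the germ cell programme at low level, from genes that DNA methylation and repressor complexes silence in other tissues. In bulk RNA, fewer cells in a state and less RNA per cell in that state cannot be told apart.

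The sets are the 2 ends of the first principal component of log2 CPM, counts scaled to the library size, when the 8 libraries are taken alone. That component carried 49.5% of the variance. With all 12 libraries the sides separated on both the first and the second component, which carried 47% and 19.5%. On that first component the WT side scored 49.2 to 71.4 and the SOM side 5.2 to 23.6. The KO and 41585 libraries scored −82.3 to −56.4, so the SOM side lay nearer to them. On the first component of the 8, WT replicate 1 scored −71.6, WT replicate 2 −37.9, 41584 replicate 1 −39.2 and 41589 replicate 1 −22.6. SOM replicates 1 and 2 scored 37.3 and 43.5, 41584 replicate 2 scored 43.6 and 41589 replicate 2 scored 46.9. The libraries nearest the middle were thus 41589 replicate 1 at −22.6 and SOM replicate 1 at 37.3, with none between them. WT replicate 1 lay farthest out, and without it the component carried 45.1% and kept the same 2 sets.

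**Figure D1:**
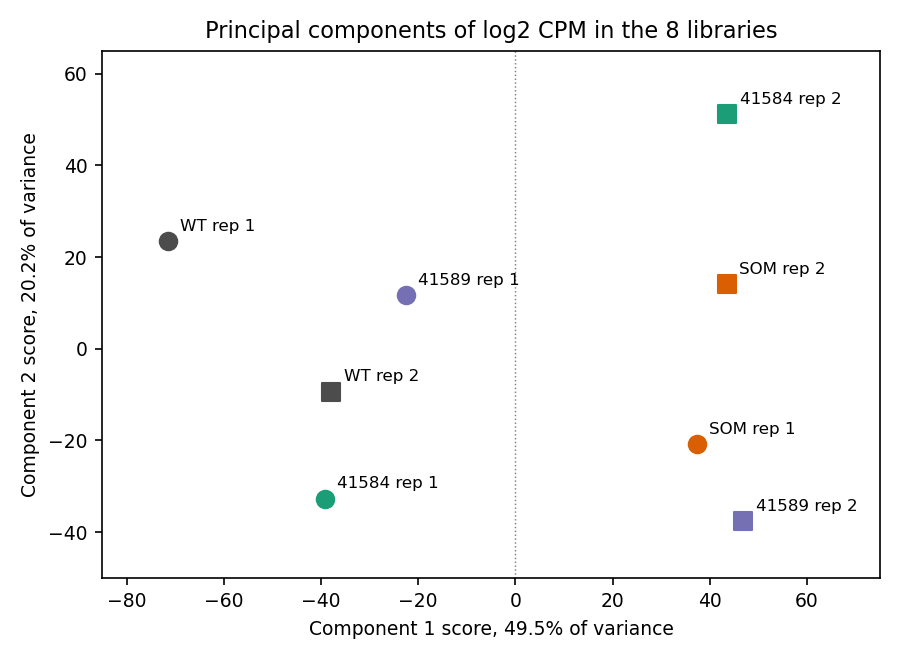
Scores of the 8 libraries on the first and second principal components of log2 CPM, in score units, coloured by line, with circles for replicate 1 and squares for replicate 2. Replicates of 41584 and of 41589 lie on opposite sides of component 1, while the 2 of WT (−71.6 and −37.9) and the 2 of SOM (37.3 and 43.5) lie on the same side.

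In the 2 divided lines, libraries correlated more with those of other lines on their side than with the other library of their line. Across the 14629 genes tested, log2 CPM correlated at 0.935 between the 2 libraries of 41584 and at 0.948 between those of 41589. Libraries of different lines on the same side correlated at 0.959 to 0.98 (10 pairs), and those of different lines on opposite sides at 0.903 to 0.964 (14 pairs). These correlations are across genes of the same libraries and describe those libraries. The order was not complete, since 41584 replicate 2 correlated at 0.959 with 41589 replicate 2 and at 0.964 with 41589 replicate 1. No 2 of the 8 libraries agreed within sampling noise, since their smallest chi-square per degree of freedom was 10.25, between WT replicate 2 and 41584 replicate 1. By that measure 41584 replicate 2 lay farther from 41589 replicate 2 (47.55) than from 41584 replicate 1 (42.27) or 41589 replicate 1 (20.16).

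The libraries held 5348401 to 10428509 counted reads, and neither depth nor the share of mitochondrial reads separated the sides. The WT side had 6688152 to 9618517 counts and 3.33 to 5.18% mitochondrial reads, and the SOM side 5348401 to 10428509 counts and 3.17 to 4.82%. Markers of embryonic stem cells (8 of 8 tested) summed to 4920 to 5490 CPM on the WT side and 4660 to 5890 CPM on the SOM side. Fibroblast markers summed to 16.6 to 41.6 CPM and 8.67 to 25.3 CPM, with Col1a2, Col3a1, Dcn, Lum and Postn under 1 CPM in all 8 libraries. Primitive endoderm markers summed to 13.8 to 94 CPM and 10.7 to 22.4 CPM, with Afp at 0. The value of 94 CPM belonged to 41584 replicate 1 alone, where Cubn held 39.2 CPM and Dab2 33.8 CPM. Trophoblast markers summed to 39.6 to 75.5 CPM and 24.3 to 34 CPM, so the sum was lower in every SOM-side library. Most of it was a single gene, Tfap2c, at 34.7 to 70.9 CPM and 23 to 32.5 CPM. Of the 4 tested members 2 were lower, and Cdx2, Elf5, Gata3, Hand1 and Plac1 were under 1 CPM. Neural markers summed to 32.9 to 39.5 CPM and 23.1 to 42 CPM, and mesoderm markers to 1.94 to 3.72 CPM and 2.01 to 5.34 CPM. The part of other cell types in the differences below was not tested.

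Dicer1, the gene targeted in this study, did not follow the sides. Its level was 198, 214, 42.3 and 40.2 CPM in the WT-side libraries and 105, 215, 55.03 and 27.8 CPM in the SOM-side libraries. In these and all later values the WT-side order is WT replicates 1 and 2, 41584 replicate 1 and 41589 replicate 1. The SOM-side order is SOM replicates 1 and 2, 41584 replicate 2 and 41589 replicate 2. Both libraries of 41584 and both of 41589 were low, and SOM replicate 1 lay between them and WT. KO and 41585 libraries held 28.5, 44.03, 29.1 and 39.2 CPM in the order KO replicates 1 and 2 and 41585 replicates 1 and 2, close to 41584 and 41589. The labels do not say which part of the gene was deleted, so this level does not check the labels.

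For each gene the distance between the sides was measured as the gap, the log2 CPM of the lowest library on one side minus that of the highest library on the other, with a prior count of 2. Its size is given, with the direction in words, and a gap near 0 means that the sides only just failed to overlap. Genes whose 4 libraries did not overlap with the other 4 were 1537 higher on the SOM side (10.5% of the tested genes) and 2099 lower (14.3%), together 3636 (24.9%). A gap of at least 1, a 2-fold distance or more, was found for 169 genes (1.16%), 38 of them higher (0.26%) and 131 lower (0.895%). Since these genes were chosen on the 8 libraries, these shares serve only as a background. Leaving out 41589 replicate 1 raised the count to 391, and leaving out SOM replicate 1 raised it to 307. Just inside the threshold of 1 lay Drc3 and Gm42547, both lower on the SOM side. Their gap, given here with its sign (SOM side minus WT side), was −1.005. Just outside the threshold lay Msc at 0.998 and Lrrc8c at −0.996, beyond Ero1l and Paqr5, which reach 1 only on rounding.

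Genes higher on the SOM side included growth regulators and signalling proteins. Enox1, which encodes a cell surface oxidase (GRCm38 chromosome 14: 77156763–77721760), measured 8.2, 17.9, 6.26 and 23.3 CPM in the WT-side libraries and 81.2, 89.4, 116 and 78.1 CPM in the SOM-side libraries. No SOM-side library came near the highest WT-side one, and the gap was 1.73. Pdgfc, a ligand of the platelet-derived growth factor receptors (chromosome 3: 81036416–81214040), measured 2.78, 2.08, 3.2 and 3.96 CPM in the WT-side libraries and 17.3, 24.99, 25.3 and 12.8 CPM in the SOM-side libraries. Cyclin D2 (Ccnd2, chromosome 6: 127125162–127152193), a partner of Cdk4 and Cdk6 in G1, measured 3.25, 3.83, 7.03 and 4.38 CPM in the WT-side libraries and 20.1, 47.2, 42.1 and 25.8 CPM in the SOM-side libraries. Both genes were low in all WT-side libraries and higher in every SOM-side library, with gaps of 1.63 and 1.48.

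Ddx58, which encodes the RNA sensor RIG-I (chromosome 4: 40203773–40239828), measured 4.95, 20.4, 13.2 and 25.9 CPM in the WT-side libraries and 106, 106, 99.5 and 66.6 CPM in the SOM-side libraries. WT replicate 1 was the lowest of the 8 and 41589 replicate 1 the highest of its side. Notum, a secreted enzyme that removes the lipid of Wnt proteins, measured 0.773, 3.61, 1.92 and 3.1 CPM in the WT-side libraries and 8.74, 15.97, 14.9 and 26.7 CPM in the SOM-side libraries. Spink1, a trypsin inhibitor, had the largest gap of the genes with an ordinary symbol and a mean of at least 5 CPM, 2.47, with 0.155, 1.31, 0.639 and 1.71 CPM in the WT-side libraries and 10.6, 15.8, 22.9 and 10.9 CPM in the SOM-side libraries. Exoc3l, a relative of the exocyst subunits, followed with 2.30. The rest of the 12 with the widest gaps were Dusp27 (1.38), the phospholipase gene Pla2g7 (1.24), the heparan sulfatase gene Sulf1 (1.24), the glutathione peroxidase gene Gpx1 (1.21) and the decarboxylase gene Ddc (1.20).

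**Figure D2:**
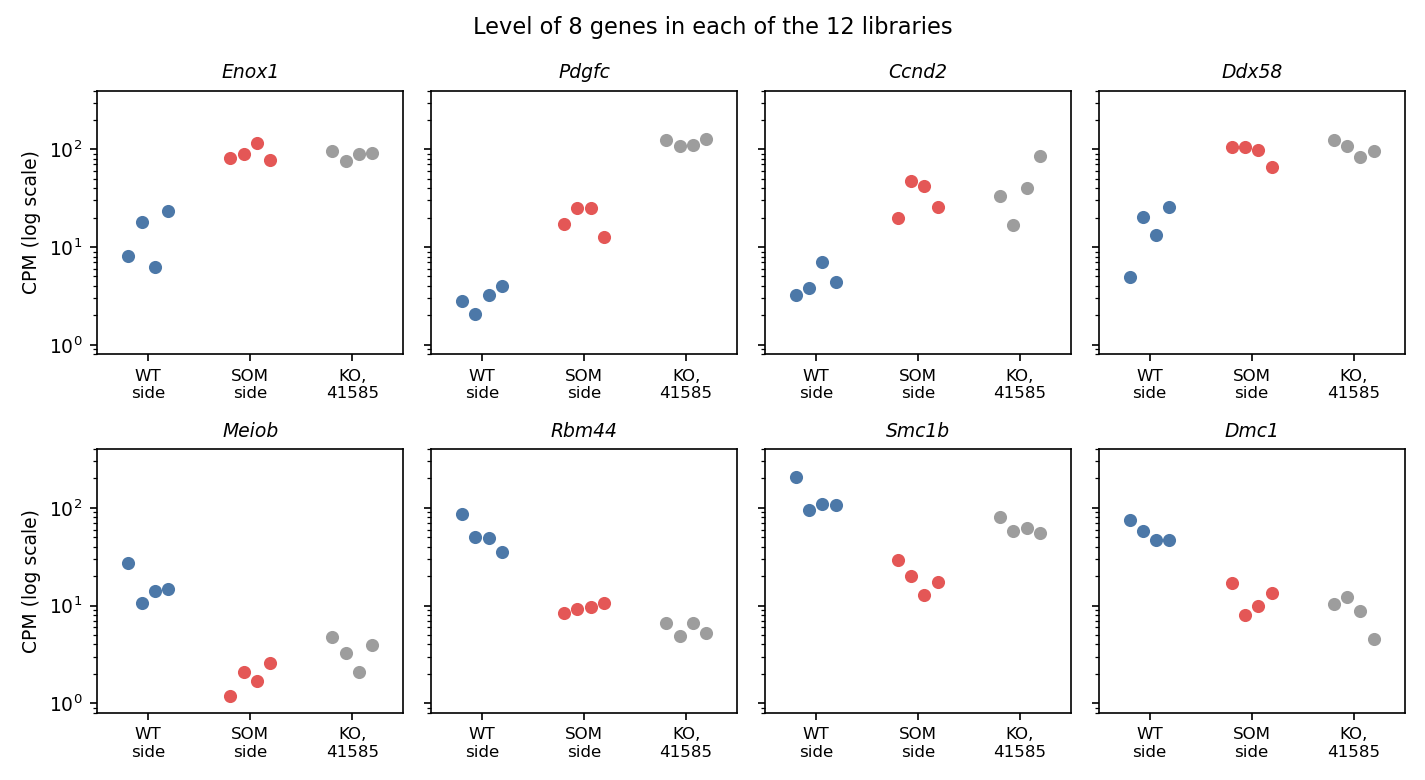
CPM on a log scale of 8 genes in each of the 12 libraries, with points for the WT side in blue, the SOM side in red and the KO and 41585 libraries in grey, in the order given in the text. Enox1, Pdgfc, Ccnd2 and Ddx58 lie higher in all 4 SOM-side libraries, and Meiob, Rbm44, Smc1b and Dmc1 lie lower in all 4.

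The 12 genes with the widest gaps in the other direction, at a mean of at least 5 CPM, included the germ cell genes Meiob, Rbm44, Smc1b and Dmc1. They were grouped so after their values were seen, and of the 24 tested members of the list of methylation-silenced germline genes 0 had a gap of at least 1. Meiob, a single-stranded DNA binding protein of meiotic recombination (chromosome 17: 24804289–24839788), measured 27.2, 10.6, 13.9 and 14.8 CPM in the WT-side libraries and 1.2, 2.07, 1.71 and 2.56 CPM in the SOM-side libraries and had the widest gap of the 12, 1.95. Rbm44, an RNA-binding protein of germ cells (chromosome 1: 91145089–91170795), measured 87.4, 49.8, 48.96 and 35.3 CPM in the WT-side libraries and 8.4, 9.21, 9.64 and 10.6 CPM in the SOM-side libraries. Its SOM-side values were close together, and all lay far under the lowest WT-side value. Smc1b, the meiotic cohesin subunit (chromosome 15: 85064689–85131964), measured 205, 95.2, 108 and 106 CPM in the WT-side libraries and 29.1, 20.1, 12.9 and 17.5 CPM in the SOM-side libraries. Dmc1, the meiotic strand exchange protein (chromosome 15: 79561497–79605109), measured 75.01, 58.1, 47.04 and 46.8 CPM in the WT-side libraries and 17.1, 8.08, 9.95 and 13.4 CPM in the SOM-side libraries. The gaps of Rbm44, Smc1b and Dmc1 were 1.71, 1.70 and 1.44. Other meiotic genes with a gap over 1, picked out after their values were seen, were Fbxo43 on chromosome 15 (1.67), Ccdc36 (1.32), Rnf212 (1.19) and Meioc (1.14).

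The rest of the 12 were Zc3h6 (1.83), the annexin gene Anxa8 (1.76), Prrg1 on the X chromosome (1.74), Fam114a1 (1.61), the Mediator subunit gene Med12l (1.52), Got1l1 (1.45), the G protein regulator gene Rgs22 (1.45) and Fam102b (1.43). Smc1b, Dmc1 and Rgs22 lie on chromosome 15, whose genes as a whole were lower in the SOM-side libraries other than SOM replicate 1, as given further on.

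The promoters of germ cell genes lower on the SOM side are shown because silencing of such genes is known to act there, through methylated CG pairs and through complexes that read an E-box (CACGTG) or the E2F core (GCGGGA). The windows reach from 250 bases before to 50 after the start, from RefSeq on GRCm38.p6, written 5′ to 3′ on the strand of the gene, with matches to either motif on either strand in capitals.
Smc1b, chr15:85131908-85132207, strand -: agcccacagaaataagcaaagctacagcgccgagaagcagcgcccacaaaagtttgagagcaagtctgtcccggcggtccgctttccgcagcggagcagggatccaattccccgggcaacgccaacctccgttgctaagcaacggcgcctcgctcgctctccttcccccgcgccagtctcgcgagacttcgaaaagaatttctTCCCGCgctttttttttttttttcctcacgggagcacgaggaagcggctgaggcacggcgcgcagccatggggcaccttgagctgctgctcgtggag
Dmc1, chr15:79605060-79605359, strand -: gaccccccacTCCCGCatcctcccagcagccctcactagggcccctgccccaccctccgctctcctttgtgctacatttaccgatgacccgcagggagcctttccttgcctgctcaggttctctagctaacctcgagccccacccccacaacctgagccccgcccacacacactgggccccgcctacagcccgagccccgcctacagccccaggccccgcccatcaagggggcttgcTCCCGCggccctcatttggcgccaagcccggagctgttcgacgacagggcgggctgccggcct
Sycp2, chr2:178407609-178407908, strand -: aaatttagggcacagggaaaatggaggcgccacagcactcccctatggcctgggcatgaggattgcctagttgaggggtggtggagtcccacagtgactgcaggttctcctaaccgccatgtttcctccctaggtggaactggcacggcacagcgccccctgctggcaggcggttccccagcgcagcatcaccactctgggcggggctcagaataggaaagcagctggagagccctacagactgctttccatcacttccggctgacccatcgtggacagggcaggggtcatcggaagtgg
Mael, chr1:166238695-166238994, strand -: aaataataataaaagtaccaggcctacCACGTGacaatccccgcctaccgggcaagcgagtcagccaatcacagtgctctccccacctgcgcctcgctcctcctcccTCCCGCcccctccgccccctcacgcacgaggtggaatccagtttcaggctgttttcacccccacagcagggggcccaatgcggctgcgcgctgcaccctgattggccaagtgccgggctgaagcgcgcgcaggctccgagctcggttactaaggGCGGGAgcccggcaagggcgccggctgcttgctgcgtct
They held 29 CG pairs in Smc1b, 18 in Dmc1, 10 in Sycp2 and 24 in Mael, against a median of 20 over the promoters of tested genes. The E2F core occurred once in Smc1b and 2 times each in Dmc1 and Mael, and the E-box 1 time in Mael. Of the 13577 promoters of tested genes, 9.84% held the E-box and 34.7% the E2F core. The 120 promoters of genes lower by a gap of at least 1 belonged to 89 genes. Of these promoters 7 (5.83%) held the E-box and 44 (36.7%) the E2F core. The E2F share was close to that of the tested genes. The E-box share was lower, but rested on 7 promoters, and the difference was not tested. The promoters shown are examples. Meiob and Rbm44 had no entry among the promoters used, and that of Mov10l1 was not shown. Methylation and factor binding were not analysed here.

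Lists of genes of known function were read against the shares of all tested genes, 10.5% higher and 14.3% lower without overlap. Median differences are given for 3 comparisons that share no library, on the log2 scale, and over all tested genes they were −0.04 for SOM minus WT, −0.06 for replicate 2 minus replicate 1 of 41584 and −0.03 for the same difference in 41589. Germline genes known to be silenced by DNA methylation had 8 of 24 tested members lower (33.3%) and 0 higher. Their medians were −0.96 for SOM minus WT, −0.93 for replicate 2 minus replicate 1 of 41584 and −1.16 for the same difference in 41589. Sycp2, of the synaptonemal complex, measured 40.4, 17.4, 20.8 and 13.5 CPM in the WT-side libraries and 6.51, 4.88, 6.84 and 6.03 CPM in the SOM-side libraries. The piRNA pathway gene Mael measured 135, 85.5, 89.9 and 80.1 CPM in the WT-side libraries and 54.9, 39.6, 34.2 and 24.1 CPM in the SOM-side libraries, and the piRNA helicase gene Mov10l1 on chromosome 15 104, 47.4, 75.5 and 41.4 CPM in the WT-side libraries and 25.5, 11.3, 12.8 and 11.4 CPM in the SOM-side libraries. The helicase gene Ddx4, the RNA-binding protein gene Dazl, and Taf7l, Tex11 and Tex101 were also lower without overlap, with gaps of 0.13, 0.08, 0.15, 0.17 and 0.08. The synaptonemal genes Sycp1 and Sycp3 overlapped, Sycp3 with 173, 74.3, 58.3 and 71.96 CPM in the WT-side libraries and 59.5, 51.7, 89.8 and 46.9 CPM in the SOM-side libraries.

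Formative and primed epiblast genes had 7 of 15 tested members higher (46.7%) and 0 lower, with medians of 1.11 for SOM minus WT, 0.83 for replicate 2 minus replicate 1 of 41584 and 0.65 for the same difference in 41589. The de novo methyltransferase gene Dnmt3b measured 56.6, 93.7, 72.2 and 115 CPM in the WT-side libraries and 143, 173, 226 and 181 CPM in the SOM-side libraries. Its cofactor gene Dnmt3l measured 49.6, 132, 143 and 166 CPM in the WT-side libraries and 405, 229.6, 219 and 233 CPM in the SOM-side libraries. SOM replicate 1 was the highest library for Dnmt3l, and WT replicate 1 the lowest for both. The Wnt effector gene Lef1 was under 2 CPM on the WT side, with 1.86, 1.09, 0.128 and 0.962 CPM in the WT-side libraries and 4.11, 5.45, 5.44 and 6.3 CPM in the SOM-side libraries. Foxd3, Utf1, Pou3f1 and Sall2 were higher too, with gaps of 0.68, 0.46, 0.16 and 0.02. The homeobox gene Otx2 overlapped, with 7.42, 19.6, 10.99 and 14.2 CPM in the WT-side libraries and 12.3, 42.1, 38.1 and 37.2 CPM in the SOM-side libraries, and SOM replicate 1 lay within the WT-side range.

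Naive and core pluripotency genes had 8 of 20 tested members higher (40%) and 2 lower (10%), with medians of 0.08 for SOM minus WT, 0.09 for replicate 2 minus replicate 1 of 41584 and 0.22 for the same difference in 41589. The nuclear receptor gene Nr0b1 measured 32.5, 27.7, 20.1 and 30.5 CPM in the WT-side libraries and 79.7, 93, 101 and 57.4 CPM in the SOM-side libraries. Pou5f1, the core factor Oct4, measured 140.0, 322, 352 and 274 CPM in the WT-side libraries and 749, 551, 386 and 791 CPM in the SOM-side libraries. Sall4, Lin28a, Stat3, Nr5a2, Klf2 and Esrrb were higher without overlap as well, with gaps of 0.38, 0.30, 0.30, 0.06, 0.03 and 0.01. Klf4, a naive factor, was lower, with 375, 249.6, 253 and 247 CPM in the WT-side libraries and 173, 175, 208 and 178 CPM in the SOM-side libraries. Fgf4, the growth factor that drives exit from the naive state, was also lower (gap 0.21). Sox2, Nanog and Zfp42 overlapped between the sides.

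G1/S cell cycle genes had 8 of 21 tested members higher (38.1%) and 2 lower (9.52%), with medians of 0.54 for SOM minus WT, 0.39 for replicate 2 minus replicate 1 of 41584 and 0.54 for the same difference in 41589. Besides Ccnd2, cyclin D1 (Ccnd1) measured 29.7, 48.5, 41.7 and 70.6 CPM in the WT-side libraries and 109, 159, 163 and 159 CPM in the SOM-side libraries, and the kinase gene Cdk4 122, 184, 171 and 152 CPM in the WT-side libraries and 343, 282, 245 and 364 CPM in the SOM-side libraries. Cdk6, Mcm2, E2f3, Ccne1 and E2f2 were higher with gaps of 0.22, 0.33, 0.11, 0.02 and 0.01. The inhibitor gene Cdkn1a (p21) was lower, with 106, 66.8, 68.9 and 46.5 CPM in the WT-side libraries and 22.3, 30.4, 25.8 and 40.6 CPM in the SOM-side libraries. Wnt pathway genes had 5 of 12 tested members higher (41.7%) and 1 lower (8.33%), and their members moved unequally. Notum, Lef1, Tcf7l1, Tcf7l2 and Ctnnb1 were higher, the feedback inhibitor gene Nkd1 was lower (gap 0.63), and the feedback target Axin2 overlapped with 3.71, 6.67, 6.78 and 3.64 CPM in the WT-side libraries and 5.31, 4.51, 6.995 and 5.75 CPM in the SOM-side libraries.

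Cholesterol synthesis genes had 6 of 19 tested members lower (31.6%) and 0 higher, with medians of −0.31 for SOM minus WT, −0.77 for replicate 2 minus replicate 1 of 41584 and −0.47 for the same difference in 41589. The sterol oxidase gene Msmo1 measured 171, 202, 181 and 208 CPM in the WT-side libraries and 91.2, 90.6, 87.05 and 92.2 CPM in the SOM-side libraries. Insig1, which holds back the sterol sensor, measured 93.6, 127, 105 and 92.7 CPM in the WT-side libraries and 36.9, 51.9, 35.9 and 57.6 CPM in the SOM-side libraries. Hsd17b7, Cyp51 and Sc5d were among the others, with gaps of 0.47, 0.39 and 0.07. Glycolysis and hypoxia response genes had 7 of 26 tested members lower (26.9%) and 0 higher, and with the trend of GC content and length removed 9 lower and 3 higher, where all tested genes had 2276 lower and 2134 higher. The members concerned were mostly hypoxia responders. Ddit4, an inhibitor of mTORC1, measured 43.5, 38.3, 53.7 and 36.03 CPM in the WT-side libraries and 19.5, 12.6, 8.24 and 16.2 CPM in the SOM-side libraries. Vegfa, the vascular growth factor, measured 127, 92.98, 119.8 and 64.6 CPM in the WT-side libraries and 43.7, 27.1, 23.2 and 51.1 CPM in the SOM-side libraries. Ndrg1, P4ha1, Bnip3, Eno2 and Pdk1 were lower with gaps of 0.77, 0.60, 0.25, 0.14 and 0.03, and Ndrg1 lies on chromosome 15. The glycolytic genes Pkm, Ldha and Aldoa overlapped.

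Hox genes had 3 of 7 tested members lower (42.9%), Hoxc13, Hoxd1 and Hoxc4, of which Hoxd1 and Hoxc4 stayed under 3 CPM. Hoxc13 and Hoxc4 lie on chromosome 15, whose genes as a whole were lower in the SOM-side libraries other than SOM replicate 1. Small RNA machinery had 5 of 19 tested members lower, Ago4, Tnrc6b, Tut7, Prkra and Ago2, and Lin28a and Xpo5 higher. Tnrc6b and Ago2 also lie on chromosome 15. The Argonaute gene Ago2 measured 627, 520.4, 625 and 606 CPM in the WT-side libraries and 329, 421, 472 and 350.1 CPM in the SOM-side libraries. Interferon and double-stranded RNA genes had 4 of 24 higher and 2 lower (16.7% and 8.33%), so Ddx58 was not joined by most of that list. Irgm1 was higher with 0.155, 0.109, 0.128 and 0 CPM in the WT-side libraries and 0.686, 3.94, 2.49 and 2.74 CPM in the SOM-side libraries. Reported targets of the embryonic miRNAs had 3 of 19 higher and 2 lower (15.8% and 10.5%), shares near those of all tested genes. Mitochondrially encoded genes had 0 of 13 in either direction and ribosomal protein genes 1 of 24 higher.

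**Figure D3:**
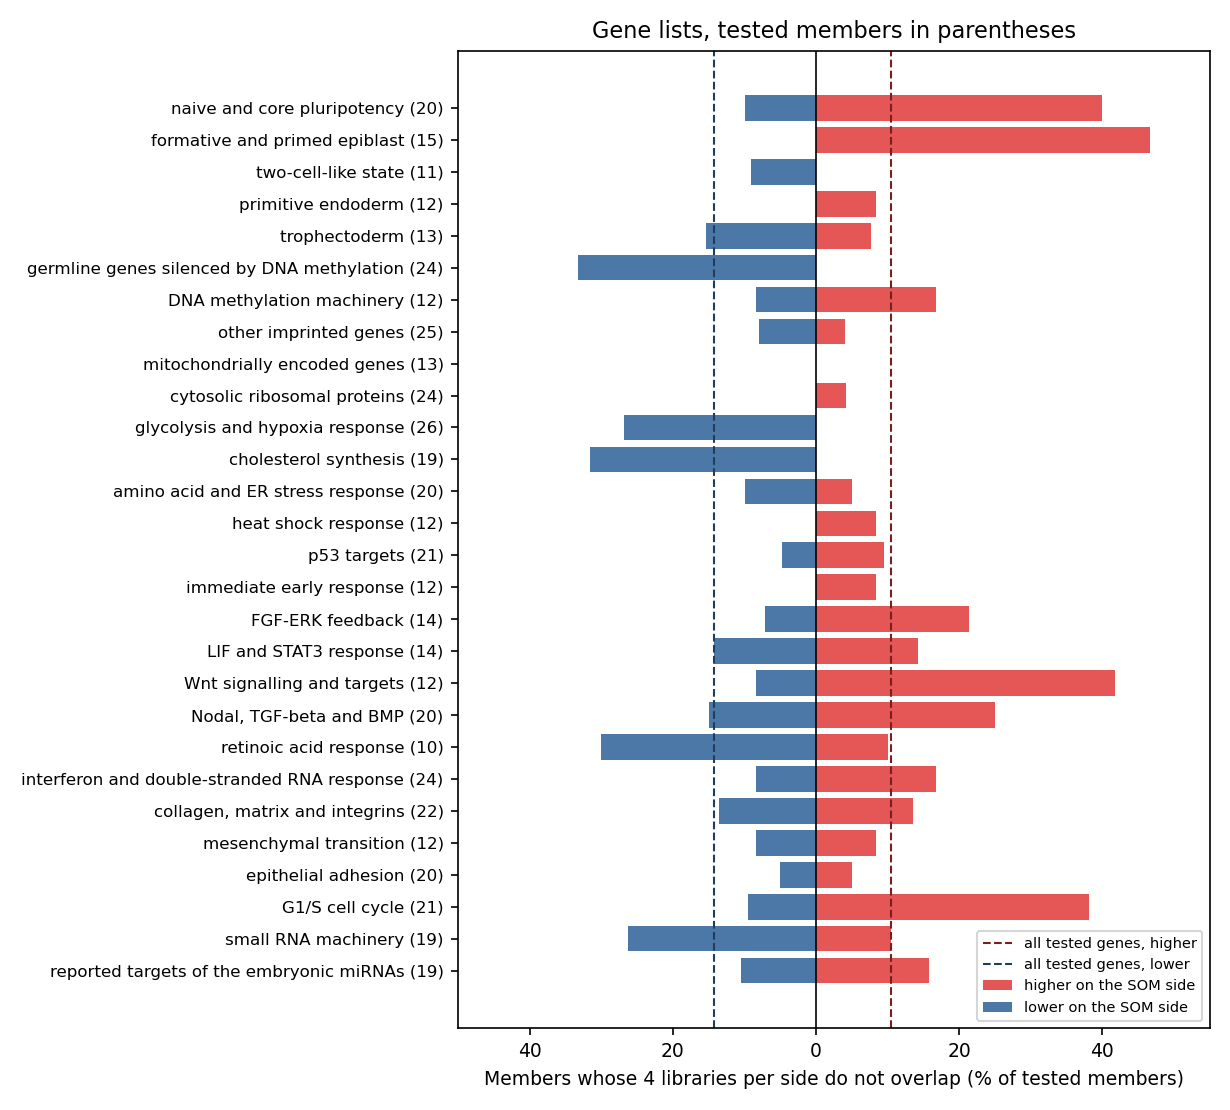
Share of the tested members of each list with at least 10 of them whose 4 libraries per side do not overlap, in percent, higher on the SOM side to the right and lower to the left, with dashed lines at the shares of all tested genes (10.5% and 14.3%). Formative (46.7%), Wnt (41.7%), pluripotency (40%) and G1/S (38.1%) lists reach farthest to the right, and germline (33.3%) and cholesterol (31.6%) lists farthest to the left.

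The 2 libraries of a line also differed in ways that the sides did not share. In 41584, the imprinted noncoding RNA Meg3 measured 1.53 CPM in replicate 1 and 188 CPM in replicate 2. It held 132.8 and 202 CPM in the libraries of 41589, and 70.5, 113, 101 and 189.8 CPM in those of WT and SOM. KO replicate 2 was as low as 41584 replicate 1, with 1.08 CPM. The two-cell-like gene Zscan4c measured 36.1 and 5.11 CPM in replicates 1 and 2 of 41589 but 31.4 and 23.2 CPM in those of 41584 and 21.6 and 3.01 CPM in those of SOM. Differences bound to a line were counted as well. Both WT libraries lay outside the range of the other 6 by at least 1 for 28 genes (21 higher and 7 lower), both SOM libraries for 3, both 41589 libraries for 1 and both 41584 libraries for 0. The spans compared differ in size, 2 libraries against 6 rather than 4 against 4. The sets also place the 2 libraries of 41584, and the 2 of 41589, on opposite sides, which keeps the counts of these lines low. These counts can therefore not be weighed against the gaps between the sides.

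Chromosome 15 was lower as a whole in the SOM-side libraries other than SOM replicate 1. Over its 569 tested genes the median difference was −0.30 for SOM minus WT, −0.71 for replicate 2 minus replicate 1 of 41584 and −0.33 for 41589. Of these 569 genes 166 were lower without overlap and 10 higher. Of all 14629 tested genes 2099 were lower (14.3%) and 1537 higher (10.5%). The next lowest autosomes in SOM minus WT were 12 at −0.20 and 13 at −0.19, the 11 tested genes of the Y had a median of −0.29, and in 41589 the X was lower than chromosome 15, at −0.36. By library, the median of chromosome 15 relative to the other autosomes was 0.11 and 0.19 in WT, 0.28 in 41584 replicate 1 and 0.15 in 41589 replicate 1. It was −0.29 in SOM replicate 2, −0.39 in 41584 replicate 2 and −0.18 in 41589 replicate 2, but 0.09 in SOM replicate 1, close to the WT side. Among libraries outside the choice, KO replicates had 0.19 each and 41585 replicates 0.42 and −0.23. Without chromosome 15 the sides still separated on the first component with 49.3% of the variance, and 158 genes had a gap of at least 1 (38 higher and 120 lower). On the Y chromosome, Zfy1, a zinc finger gene, was lower with 49.5, 20.6, 10.6 and 9.73 CPM in the WT-side libraries and 1.37, 0.376, 4.2 and 0.731 CPM in the SOM-side libraries, while Ddx3y overlapped with 231, 151, 147 and 188 CPM in the WT-side libraries and 109, 215, 338 and 173 CPM in the SOM-side libraries. KO replicate 2 stood apart from all other libraries, with 0 CPM of Ddx3y.

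**Figure D4:**
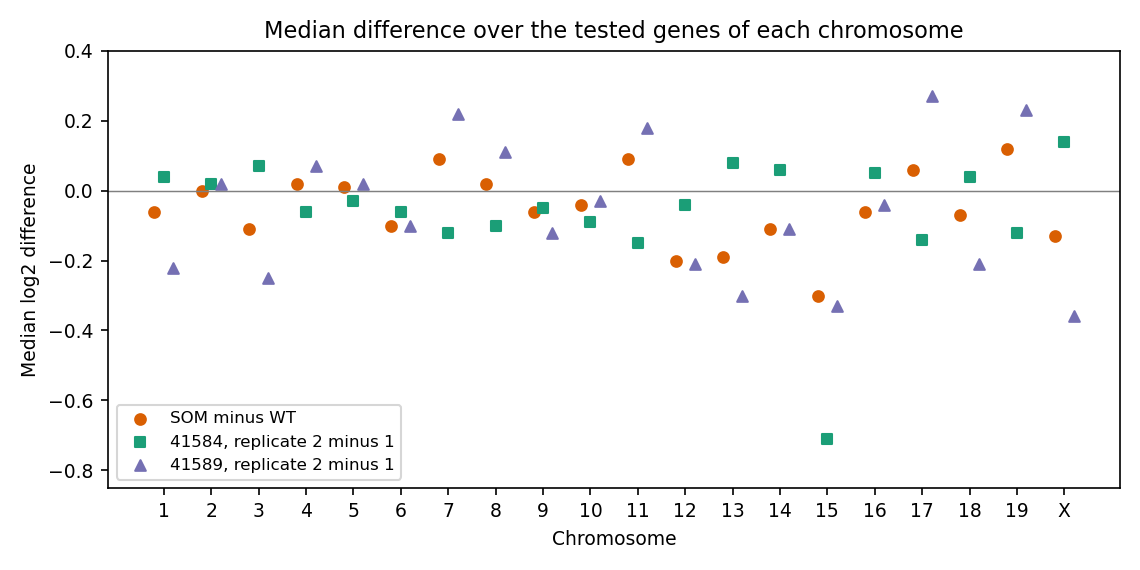
Median log2 difference over the tested genes of each autosome and the X, for SOM minus WT (circles), 41584 replicate 2 minus 1 (squares) and 41589 replicate 2 minus 1 (triangles). Chromosome 15 is below 0 in all 3, at −0.30, −0.71 and −0.33, and the X in 41589 is at −0.36.

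The composition of the libraries varied as well, and not in the same direction in the 3 comparisons. The log2 difference correlated with the GC content of the transcript at a Spearman coefficient of 0.30 for SOM minus WT, −0.35 for replicate 2 minus 1 of 41584 and 0.62 for 41589. With transcript length the coefficients were −0.22, 0.01 and −0.15. Across the 14629 genes the differences of 41584 and 41589 correlated at 0.18, and at 0.47 over 14596 genes once the trend of GC content and length was taken out of each library. SOM minus WT correlated with 41584 at 0.53 (0.66 with the trend removed) and with 41589 at 0.60 (0.57). These comparisons share no library, but their signs were fixed when the sides were chosen, and genes are not independent, so the coefficients are descriptions. With the trend removed, the separating component carried 55% of the variance and 176 genes had a gap of at least 1, of which 109 were among the 169. Several named genes came closer, with gaps of 0.05 for Nr0b1, 0.08 for Sall4, 0.29 for Sycp2, 0.43 for Msmo1 and an overlap for Foxd3. The gap of Rbm44 was then 1.25 and that of Zc3h6 was 1.36. The part of GC content and length in these differences was not tested further.

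The KO and 41585 libraries, which the choice did not use, allow the genes that separate the sides to be tested elsewhere. In 41585 against KO, edgeR called 0 of 14629 genes at a Benjamini-Hochberg adjusted p under 0.05 (n = 2 per group, DESeq2 1 gene), and 995 (6.8%) had an unadjusted p under 0.05. Of the 38 genes higher on the SOM side 1 had such a p, and of the 131 lower ones 3. By edgeR none of these 169 genes was called. The 1 higher gene with such a p was Lef1, at 1.1, 0.616, 2.11 and 15.9 CPM in the KO and 41585 libraries, higher in 41585. The 3 lower genes with such a p, Zfy1, AI662270 and BC067074, were all higher in 41585 as well, against the direction of the sides. Zfy1, for example, measured 2.32, 0, 6.67 and 30.4 CPM. It lies on the Y chromosome, from which KO replicate 2 held only 74 counts. KO replicate 1 held 3760, and the 41585 replicates 3240 and 4245. The part of this in the difference of Zfy1 was not tested. Each of these 4 genes had an adjusted p of 0.642 by edgeR. AI662270 and BC067074 were named after their values were seen. In 41585 against KO the median log2 difference of the 38 genes was 0.29 and that of the 131 genes −0.22.

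With only the KO and 41585 libraries in the fit, where the divided lines do not enter the spread, edgeR called 545 of 13392 genes (4.07%), 481 higher and 64 lower in 41585. Of the genes higher on the SOM side 35 were tested and 4 called (11.4%), all higher in 41585. They included Notum, Gpx1 and Lrrn2. Notum measured 44.5, 40.95, 107 and 174 CPM, with a log2 difference of 1.72 (SE 0.24, edgeR adjusted p 0.0263). Of the 35 tested genes higher on the SOM side, 13 had an unadjusted edgeR p under 0.05 (37.1%), 11 higher and 2 lower in 41585. Of the genes lower on the SOM side 84 were tested and 0 called, and 16 had such a p (19%), 12 lower and 4 higher. Over all tested genes the share with such a p was 28.6%. The 4 calls were thus present in this fit and absent from the one with all 12 libraries.

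In 41584 and 41589 the SOM side coincides with replicate number 2. The same number was therefore compared in KO and 41585, with the line as a second term. Of 13392 genes edgeR called 0 and DESeq2 0, and 470 (3.51%) had an unadjusted p under 0.05 by edgeR. Of the 35 tested genes among those higher on the SOM side 0 had such a p, and of the 84 among the lower ones 2. Replicate 2 minus replicate 1 had a median of −0.19 in KO and 0.29 in 41585 over the 38 higher genes, and of 0.01 and −0.27 over the 131 lower genes. In WT these medians were 0.70 and −0.46 and in SOM 0.28 and −0.28. Over all genes, replicate 2 minus 1 of 41585 correlated with that of 41584 at 0.33 (0.27 with the trend removed) and with that of 41589 at −0.02 (0.17), and that of KO correlated with them at −0.04 (−0.05) and −0.03 (−0.02). With the trend removed all 6 such correlations among SOM, 41584, 41589 and 41585 lay between 0.17 and 0.47, and in these 4 lines chromosome 15 was lower in replicate 2 than in replicate 1. Whether the replicate number marks a shared batch was not tested.

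In level, most of these genes stood in the KO and 41585 libraries on the same side of the WT-side libraries as the SOM side did. All 4 libraries lay above all 4 of the WT side for 33 of the 38 higher genes (21.1% of all tested genes) and below for 0. For 108 of the 131 lower genes all 4 lay below the WT side (21.5% of all tested genes). The WT-side libraries had chosen these genes, so the counts are not independent of the choice. Against the SOM side the same 4 libraries overlapped for 21 of the 38 and 86 of the 131 genes. Over all 14629 tested genes they overlapped it for 10755, a larger share than in either set. Pdgfc, for example, measured 124, 109, 111 and 129 CPM in the KO and 41585 libraries, above the SOM side, and Enox1 96.1, 75.1, 88.9 and 91.98 CPM, within its range or just under it. Smc1b measured 80.3, 57.7, 62.7 and 55.7 CPM, between the sides, Rbm44 6.59, 4.93, 6.67 and 5.27 CPM, and Spink1 0.366, 0.154, 0 and 0.129 CPM, within or under the WT-side range. Over all genes the position depended on the component. On the first component of all 12 libraries the KO and 41585 libraries lay beyond the SOM side. On the second, KO scored −27.3 and −22.9 and 41585 −16.9 and 3.6. There the WT side scored −53.8 to −9 and the SOM side 39.6 to 51.1.

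The number of genes called in labelled comparisons moved with the library left out. In 41584 against WT and in 41589 against WT, edgeR called 0 of 14629 genes with all libraries (n = 2 per group), with 706 (4.83%) and 1719 (11.8%) at an unadjusted p under 0.05. DESeq2 called 28 and 69. Without replicate 1 of 41584, which leaves the library on the SOM side, 106 genes were called against WT, 73 higher and 33 lower (0.691% of the genes tested). Without replicate 2 of 41584, which leaves the library on the WT side, 0 were called. Without replicate 1 of 41589 the count was 647, 556 higher and 91 lower (4.26%), and without replicate 2 it was 0. A SOM-side library set against WT follows the axis on which the sides were chosen, so these counts restate that choice and support nothing. In each of these fits the lone library was assumed to vary like those of the other groups. Leaving out either library of a divided line also lowered the common biological coefficient of variation from 0.278 to 0.247 for 41584 and to 0.252 for 41589.

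SOM against WT sets a line wholly on one side against one wholly on the other. With all 12 libraries sharing one estimate of spread, edgeR called 0 genes, although 3175 (21.7%) had an unadjusted p under 0.05, and DESeq2 called 673. With only the 4 libraries of SOM and WT in the fit, which leaves out the divided lines and KO and 41585, the common coefficient of variation was 0.217 and 2035 genes were called, 977 higher and 1058 lower. These counts use libraries on which the sides were chosen and are no evidence for them. Because the origin of the replicates is not stated, the p-values cover the spread of these libraries alone, which may be technical.

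**Figure D5:**
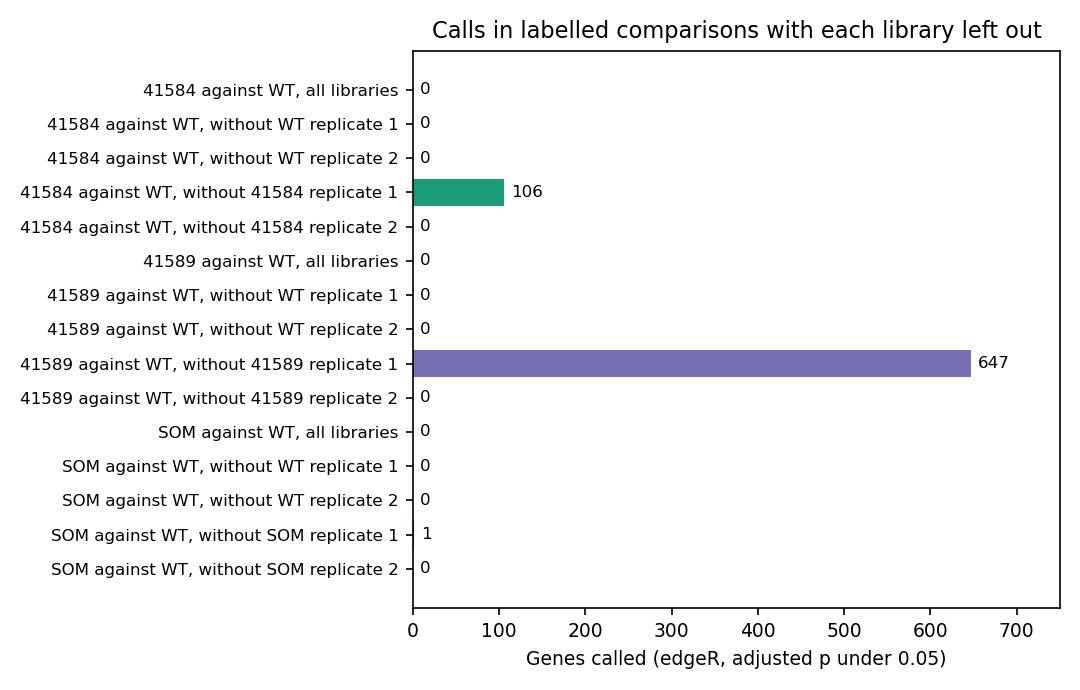
Genes called by edgeR at an adjusted p under 0.05 in 3 labelled comparisons, with all libraries and without each library in turn. The counts reach 106 without replicate 1 of 41584 and 647 without replicate 1 of 41589, and are 0 or 1 in the other fits shown.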

How the data were processed

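Per the labels, total RNA was made into libraries with an Illumina TruSeq kit and a reverse-stranded protocol. The submitters' processing notes name STAR 2.4.2a and the builds mm10 and GRCm38. Neither the counting program nor its annotation release is given in the sources used here. The deposited table holds raw counts per gene, not normalized by the authors, for 12 libraries and 47643 genes. Symbols and coordinates came from GENCODE M21.

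Genes passing edgeR's filterByExpr (14629) were scaled by TMM and put on the log2 CPM scale with a prior count of 2. Labelled groups were compared with edgeR 4.0.16 in R 4.3.3 (quasi-likelihood test, robust, Benjamini-Hochberg adjustment over all tested genes, threshold 0.05). DESeq2 1.42.0 was an alternative. Replicate numbers were not treated as pairs. The trend of GC content and transcript length was removed per library by a lowess curve (span 0.3). Scripts were tested on simulated data.

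By rule, named genes have an ordinary symbol and a mean of at least 5 CPM. They are the 12 with the widest gap in each direction, up to 4 members per list with the widest gap and members needed to state what the list did, and the genes with the smallest adjusted p in 41585 against KO. List members under 5 CPM (such as Lef1, Irgm1, Nkd1 and the Hox genes), genes at the threshold of the gap and added meiotic genes fall outside that rule and were named after their values were seen. The members, the 34 lists and the tests were chosen with earlier results of these data known.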

Additional observations from a re-analysis of the deposited data

How the results depend on the processing

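The 2 sides separated on the first component under every alternative run, with 71.3% of the variance for the 500 most variable genes, 41% with no filter on low counts, 55% with the GC and length trend removed and 45.1 to 54.8% when a library was left out. The count of 169 genes became 752 at a gap of 0.5 and 4 at a gap of 2, and 177 to 391 when a library was left out. Library totals without TMM moved the median of all genes in 41584 from −0.06 to −0.30 and gave 161 genes. Removing the GC and length trend moved 29 of the named genes' gaps (126 did not move) and 32 of the list counts (36 did not move). DESeq2 size factors moved 1 gap and 4 list counts. The trend removal, the analysis without chromosome 15 and the fit without a line term were chosen after seeing the data.

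Counts of called genes started from 0 in each labelled comparison. DESeq2 called 1 gene in 41585 against KO, 673 in SOM against WT, 28 in 41584 against WT and 69 in 41589 against WT. With no filter on low counts edgeR called 119, 1345, 132 and 541 in that order, and 57 for replicate 2 against 1 in KO and 41585. With only the 2 groups in the fit it called 545 in 41585 against KO and 2035 in SOM against WT. Leaving out a library gave 0 to 4 in 41585 against KO, 0 to 1 in SOM against WT, 0 to 106 in 41584 against WT and 0 to 647 in 41589 against WT. The cause of these changes was not tested.

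With a replicate block edgeR called 3 genes in SOM against WT, 1 in 41589 against WT, and 0 in 41584 against WT and in 41585 against KO. The numbers were not taken as pairs, since replicate 2 minus 1 correlated across genes between lines at −0.08 to 0.51, not above 0.1 in every pair. Among SOM, 41584, 41589 and 41585 it did exceed 0.1 in every pair with the trend removed (0.17 to 0.47), so a shared effect of the number in these lines cannot be told apart from the sides. With 2 libraries per group, small differences could go undetected. In simulated counts, 12% of 50 genes changed 2-fold were called in 41585 against KO with all 12 libraries in the fit. For replicate 2 against 1 in KO and 41585 it was 8% of 50.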
